A study of Mus musculus with 7 samples.

Results

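The genes described here mark Schwann cells and the myelin they make in peripheral nerve. They are *Prx*, *Pmp22*, *Pmp2*, *Egr2*, *Cdh19*, *Ncmap*, *Drp2* and *Ngfr*, chosen by name, and each matched exactly 1 of the 21965 rows of the count table, so 8 genes of 21965 are covered. RNASeq was made at dpi 3 after a moderate contusion at T9, from a segment of spinal cord centred on the injury epicenter that also held the penumbra. There were 3 mice labelled *Bmal1*-/- and 4 WT mice, all young adults on a C57BL/6 background. The *Bmal1*-/- mice were homozygous for the *Arntltm1Bra* allele in all cells and came from heterozygous parents, while a single WT mouse was a littermate and the other WT mice were purchased. Libraries labelled *Bmal1*-/- replicates 1 and 2 and WT replicates 1 and 2 came from females, and *Bmal1*-/- replicate 3 and WT replicates 3 and 4 from males. All 7 mice carried the same injury, so the comparison of genotypes is one of injured cord with injured cord, and no uninjured cord was included.

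Schwann cells ensheath the axons of spinal roots and peripheral nerves and are normally kept out of the cord by the glia that line its surface. In a myelinating Schwann cell the transcription factor EGR2 acts with SOX10 to switch on the genes of compact myelin, while periaxin and DRP2 join the outer membrane to dystroglycan and so to laminin. After nerve injury the cells lose their myelin program and express the neurotrophin receptor p75NTR, and after cord injury they can enter the lesion from the roots and remyelinate central axons. A segment of cord taken at the vertebral level may also carry stumps of dorsal and ventral roots, whose Schwann cells give the same transcripts.

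The libraries held 38529644 to 44096737 counts and differed little in depth. Levels are given as CPM, the count scaled to library size with TMM factors, which even out differences in composition between libraries. Differences are log2 fold changes with WT as the reference, and a gene is called at an adjusted p under 0.05 in edgeR's quasi-likelihood test over all 15743 genes tested. *Arntl*, the targeted gene, was counted at 22.5 to 24.2 CPM in the libraries labelled *Bmal1*-/- and at 11.9 to 15.3 CPM in WT, against what the label alone would give. That count covers all exons of the gene, and so does not show whether the deleted part is missing. The labels are used as given.

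Before the members are described, tissue other than cord has to be reported, because it differed between the libraries. *Scn10a*, a sodium channel gene of nociceptive neurons in dorsal root ganglia, was at 151, 71.2, 3.17 and 0.93 CPM in WT replicates 1 to 4. In the libraries labelled *Bmal1*-/- it had 0, 0 and 1 counts. The transcript was thus plain in WT replicates 1 and 2, scarce in WT replicates 3 and 4, and at or near 0 in the others. The summed level of 10 dorsal root ganglion markers was 889 and 557 CPM in WT replicates 1 and 2, 122 and 93.1 CPM in WT replicates 3 and 4, and 144 to 153 CPM in the libraries labelled *Bmal1*-/-. None of the 9 markers tested was called by edgeR with genotype alone or by limma-voom, 6 had an unadjusted p under 0.05, and DESeq2 called 6. Over all genes tested, 20.9% had an unadjusted p under 0.05 in edgeR with genotype alone. DESeq2 called 914 genes lower and 599 higher over all genes. Limma-voom called 115 lower and 91 higher, and edgeR with sex as a covariate called 105 lower and 69 higher. The same background stands beside the counts for each list below. Of the ganglion markers, edgeR with sex as a covariate called 3, *Scn10a* (adjusted p = 0.00811), *Mrgprd* (adjusted p = 0.0127) and *Scn11a* (adjusted p = 0.0132). Outside WT replicates 1 and 2 most of that sum came from *Prph* and *Calca*, which spinal motor neurons also express. Of the 10 markers, *Mrgprx1* was at 0 counts in each library labelled *Bmal1*-/-, and *Mrgprd* had 1 count in replicate 2 and 0 in the others. WT replicates 1 and 2 are also the 2 female WT libraries, so within WT this content and sex cannot be told apart. The female libraries labelled *Bmal1*-/- did not share it. Each member is therefore given with all libraries and without WT replicates 1 and 2, a choice made after these values were seen.

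The promoters of *Egr2* and *Prx*, the called regulator and the member with the largest fold, are shown because EGR2 is both a member and a regulator of myelin genes, and because BMAL1 binds E-boxes. RefSeq's promoter windows for GRCm38.p6, from 250 bases before to 50 bases after the start, were found for 5 of the 8 members, and where a gene had several the one nearest its annotated start was taken. They were searched on both strands for CACGTG (an E-box), GTGGGNG (an EGR-type site) and ACAAAG (a SOX-type site), and matches are in capitals.
Egr2, chr10:67535249-67535548, + strand: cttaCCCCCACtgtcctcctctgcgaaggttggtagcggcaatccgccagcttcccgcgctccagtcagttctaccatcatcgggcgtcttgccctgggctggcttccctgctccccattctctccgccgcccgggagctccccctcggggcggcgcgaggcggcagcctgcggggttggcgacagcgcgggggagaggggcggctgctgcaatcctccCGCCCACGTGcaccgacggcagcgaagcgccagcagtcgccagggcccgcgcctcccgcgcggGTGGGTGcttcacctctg
Prx, chr7:27499074-27499373, + strand: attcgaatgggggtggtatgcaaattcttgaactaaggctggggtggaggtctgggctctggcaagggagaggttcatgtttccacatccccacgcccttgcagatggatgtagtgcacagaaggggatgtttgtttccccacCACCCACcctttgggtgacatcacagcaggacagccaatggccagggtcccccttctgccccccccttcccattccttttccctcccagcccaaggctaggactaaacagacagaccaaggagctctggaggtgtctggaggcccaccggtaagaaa

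The *Egr2* window held 1 CACGTG, which begins 27 bases before the start and overlaps an EGR-type match, and 3 matches of GTGGGNG. The *Prx* and *Ncmap* windows held 1 match of GTGGGNG each, and the windows of *Pmp22* and *Ngfr* held no match of the 3 motifs. *Egr2* was the gene of the 5 with an E-box in the window. Of 32851 promoter windows of this length in the table, 7.15% held CACGTG, 31.6% held GTGGGNG and 18.7% held ACAAAG. A match is a description of the letters, not of binding.

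*Egr2*, the master regulator of peripheral myelin genes and also an early response gene in immune cells, was lower in the libraries labelled *Bmal1*-/-. Its levels were 2.80, 3.53 and 2.67 CPM in replicates 1 to 3, against 6.33, 6.71, 6.69 and 5.75 CPM in WT replicates 1 to 4. The groups did not overlap, and the WT libraries lay close together, including those without much ganglion RNA. Mean levels were 3.00 ± 0.47 CPM (SD, n = 3) in the former and 6.37 ± 0.45 CPM (SD, n = 4) in WT. This gave -1.09 as log2 fold change with a standard error of 0.14 (adjusted p = 0.0155, edgeR). Without WT replicates 1 and 2 the log2 fold change was -1.06 and the gene was not called (adjusted p = 0.106, edgeR). *Egr2* (ENSMUSG00000037868) lies on chromosome 10 of GRCm38 from 67535475 to 67542188. The call was lost without *Bmal1*-/- replicate 1 (adjusted p = 0.109, edgeR), *Bmal1*-/- replicate 3 (adjusted p = 0.0797) or WT replicate 1 (adjusted p = 0.0580). When each of the 7 libraries was left out in turn, the log2 fold change stayed between -1.22 and -1.01.

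*Cdh19*, a cadherin gene of the Schwann cell lineage, was the other member called. It had 17.3, 22.4 and 16.3 CPM in replicates 1 to 3 labelled *Bmal1*-/- and 31.99, 37.5, 29.9 and 39.0 CPM in WT replicates 1 to 4. As for *Egr2*, the groups were apart, and WT replicate 4, which had the least ganglion RNA of the WT libraries, had the highest value. The log2 fold change was -0.89 with a standard error of 0.15 (adjusted p = 0.0362, edgeR), from 34.6 ± 4.36 (SD, n = 4) to 18.7 ± 3.27 CPM (SD, n = 3). It was -0.88 without WT replicates 1 and 2, where the gene was not called (adjusted p = 0.117, edgeR). Of the 7 fits that left out 1 library, those without *Bmal1*-/- replicate 2 and without WT replicate 3 kept the call, and its log2 fold change stayed between -1.04 and -0.80. The adjusted p in the other 5 was 0.0762 to 0.181 (edgeR). *Cdh19* (ENSMUSG00000047216) lies on chromosome 1 from 110888326 to 110977584.

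**Figure D1:**
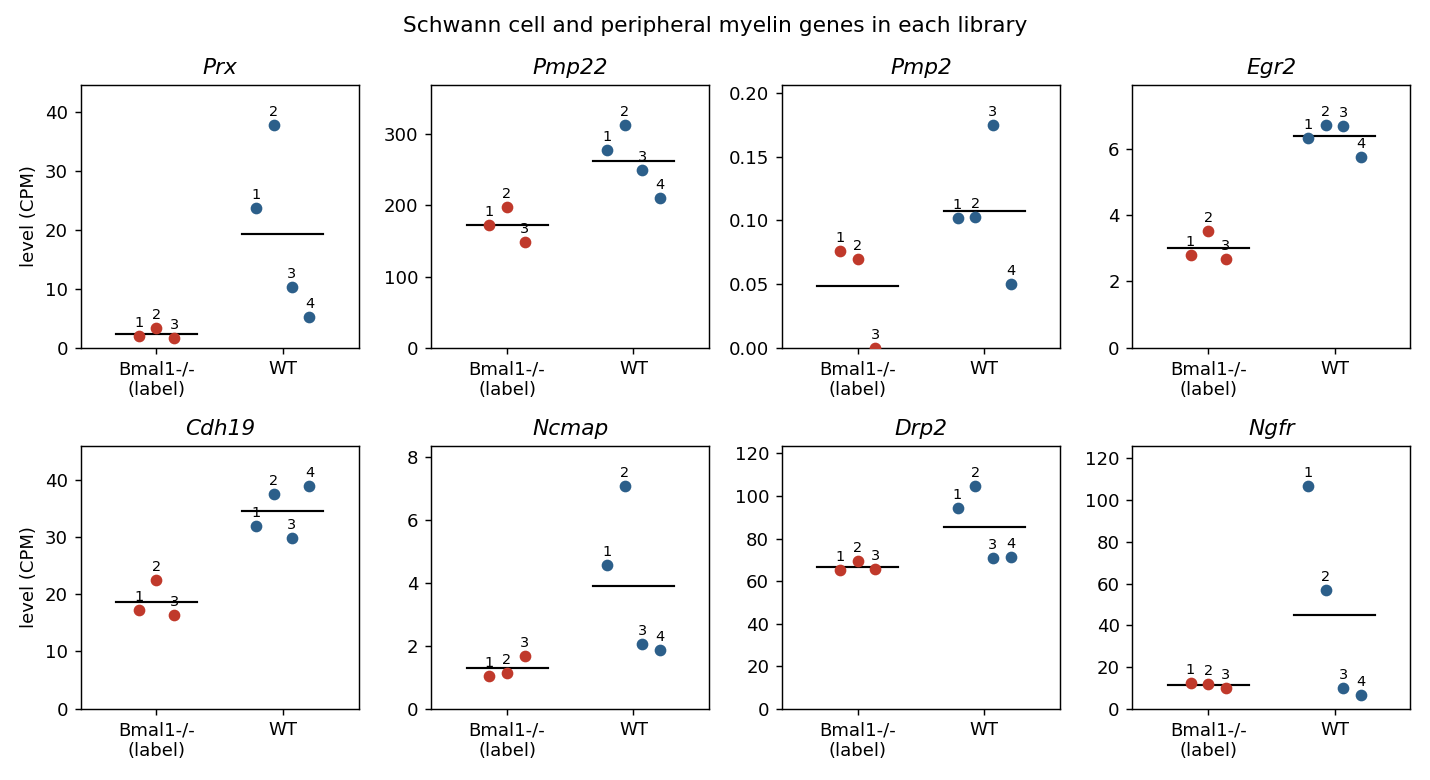
Level in CPM (vertical axes, each from 0) of the 8 genes in each library, with 1 point per mouse numbered by replicate and a line at the group mean. For *Egr2* and *Cdh19* the 4 WT points sit together above the 3 others, while for *Prx*, *Ncmap* and *Ngfr* WT replicates 1 and 2 stand well above WT replicates 3 and 4.

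*Prx* encodes periaxin, a scaffold of the myelinating Schwann cell membrane, and had the largest fold of the members. It was at 2.06, 3.30 and 1.62 CPM in replicates 1 to 3 labelled *Bmal1*-/- and at 23.7, 37.7, 10.4 and 5.22 CPM in WT replicates 1 to 4. The lowest WT library lay above the highest of the others, but the WT values spread 7.23-fold among themselves. The log2 fold change was -3.04 with a standard error of 0.71, which did not pass (adjusted p = 0.0869, edgeR). Without WT replicates 1 and 2 it was -1.74, with a 95% interval from -2.78 to -0.70, and it did not pass either (adjusted p = 0.125, edgeR). It passed without WT replicate 3 (log2 fold change -3.25, adjusted p = 0.0492, edgeR). *Prx* (ENSMUSG00000053198) lies on chromosome 7 from 27499324 to 27520214, and an antisense gene, *Gm15541*, shares 300 bases of its exons and has no row in the table.

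*Drp2* encodes the dystrophin-related partner of periaxin at the dystroglycan complex. It moved far less, with 65.1, 69.2 and 65.6 CPM in replicates 1 to 3 labelled *Bmal1*-/- and 94.3, 105, 70.8 and 71.5 CPM in WT replicates 1 to 4. WT replicates 3 and 4 lay just above the highest library of the other group, and WT replicates 1 and 2 well above it. The log2 fold change was -0.36 with all libraries (adjusted p = 0.232, edgeR) and -0.10 without those 2, with a 95% interval from -0.26 to 0.07. *Drp2* (ENSMUSG00000000223) lies on the X chromosome from 134404551 to 134456573.

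*Pmp22* encodes the membrane protein of compact myelin whose gene dosage matters in inherited neuropathy, and fibroblasts and endothelial cells express it too. Its levels were 172, 197 and 149 CPM in replicates 1 to 3 labelled *Bmal1*-/- and 278, 313, 250 and 210 CPM in WT replicates 1 to 4. The groups did not overlap, with WT replicate 4 and *Bmal1*-/- replicate 2 as the nearest pair. The log2 fold change was -0.61 with a standard error of 0.15 (adjusted p = 0.108, edgeR), and -0.42 without WT replicates 1 and 2 (adjusted p = 0.160, edgeR). It lies on chromosome 11 from 63128982 to 63159547 (ENSMUSG00000018217).

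*Ncmap*, which encodes a membrane protein of noncompact peripheral myelin, was scarce. It had 1.04, 1.14 and 1.67 CPM in replicates 1 to 3 labelled *Bmal1*-/- and 4.57, 7.09, 2.05 and 1.87 CPM in WT replicates 1 to 4. Its lowest WT value, from 74 counts, was barely above the highest of the other group, from 66 counts. Its log2 fold change was -1.60 with a standard error of 0.52 (adjusted p = 0.168, edgeR), and -0.61 without WT replicates 1 and 2, with a 95% interval from -1.29 to 0.07. *Ncmap* (ENSMUSG00000043924) lies on chromosome 4 from 135369576 to 135398227.

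*Pmp2* encodes the fatty acid binding protein of peripheral myelin and was too scarce for a close comparison. It had 3, 3 and 0 counts in replicates 1 to 3 labelled *Bmal1*-/- and 4, 4, 7 and 2 counts in WT replicates 1 to 4, and it did not pass the filter on low counts. When each gene with at least 1 count was tested, its log2 fold change was -1.08 with a 95% interval from -2.81 to 0.65 (adjusted p = 0.435, edgeR). A count of 0 allows up to 0.0761 CPM in *Bmal1*-/- replicate 3. On chromosome 3 *Pmp2* (ENSMUSG00000052468, 10179851 to 10183929) shares 1224 of its 1408 exon bases with *Gm37389*, a gene on the same strand that had no count in the 7 libraries. Reads there cannot be assigned to 1 of the 2 genes, and the part of this in the low count was not tested.

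*Ngfr* encodes p75NTR, the low affinity neurotrophin receptor of immature and denervated Schwann cells and of sensory neurons. It was at 12.3, 11.6 and 9.67 CPM in replicates 1 to 3 labelled *Bmal1*-/- and at 107, 56.8, 9.66 and 6.51 CPM in WT replicates 1 to 4. The groups overlapped, since WT replicates 3 and 4 lay below the others. The log2 fold change was -2.01 with a standard error of 0.95 (adjusted p = 0.268, edgeR) with all libraries. It turned to 0.47 without WT replicates 1 and 2, with a 95% interval from -0.07 to 1.00 (adjusted p = 0.208, edgeR). WT libraries ranked in the order 1, 2, 3 and 4 for *Ngfr*, which is also their order for *Scn10a*. For *Prx*, *Pmp22* and *Ncmap* the order was 2, 1, 3 and 4. *Ngfr* (ENSMUSG00000000120) lies on chromosome 11 from 95568818 to 95587735.

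**Figure D2:**
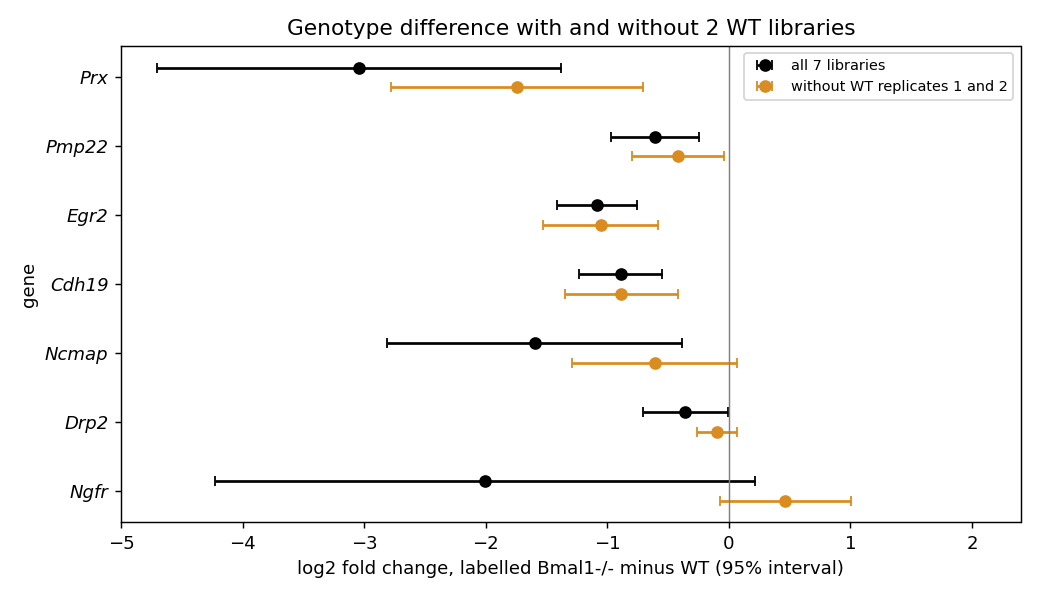
Log2 fold change, labelled *Bmal1*-/- minus WT, with its 95% interval (horizontal axis) for the 7 genes tested, from all 7 libraries (black) and without WT replicates 1 and 2 (orange). *Egr2* and *Cdh19* keep nearly the same value, at -1.09 and -1.06 and at -0.89 and -0.88, whereas *Ngfr* moves from -2.01 to 0.47.

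Of the 8 members, 7 passed the filter on low counts and 2, *Egr2* and *Cdh19*, were called lower. Over all genes tested, 144 of 15743 or 0.915% were called lower, and 103 or 0.654% were called higher. The 7 members tested had negative log2 fold changes, with a median of -1.09, beside a median of -0.0057 over all genes. In 6 of the 7 every library labelled *Bmal1*-/- was below every WT library, which held for 13.5% of all genes tested. Without WT replicates 1 and 2, none of the 7 was called in edgeR's test, 4 had an unadjusted p under 0.05, as did 28.3% of all genes in that fit, and the median log2 fold change was -0.61. In that comparison 15 genes were called lower, 0.0952% of the genes tested, so calls over all genes were fewer as well.

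The members differed in how evenly they were counted among the WT mice. The highest WT library was 1.17 times the lowest for *Egr2* and 1.30 times for *Cdh19*, where the median over 15742 genes was 1.33 times. *Pmp22* and *Drp2* were at 1.49 and 1.48 times. *Ncmap* at 3.80, *Prx* at 7.23 and *Ngfr* at 16.4 times were past the 95th percentile of all genes, which was 2.95 times.

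Per kilobase of exon, *Pmp22* had the highest level of the members in WT, at 112 ± 18.5 CPM per kilobase (SD, n = 4). *Ngfr*, *Drp2* and *Cdh19* followed with 13.0 ± 13.7, 9.98 ± 1.98 and 8.08 ± 1.02, and these 3 overlapped in their ranges. *Prx*, *Egr2* and *Ncmap* had 3.45 ± 2.61, 1.87 ± 0.13 and 1.75 ± 1.11, also with overlapping ranges, and *Pmp2* was lowest at 0.076 ± 0.036. In the libraries labelled *Bmal1*-/- *Drp2*, *Cdh19* and *Ngfr* came after *Pmp22* with 7.79 ± 0.26, 4.36 ± 0.76 and 3.25 ± 0.40 CPM per kilobase (SD, n = 3). *Prx* stood above *Egr2* in the WT order of means and here below *Ncmap*, at 0.42 ± 0.16 against 0.88 ± 0.14 for *Egr2* and 0.58 ± 0.15 for *Ncmap*.

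**Figure D3:**
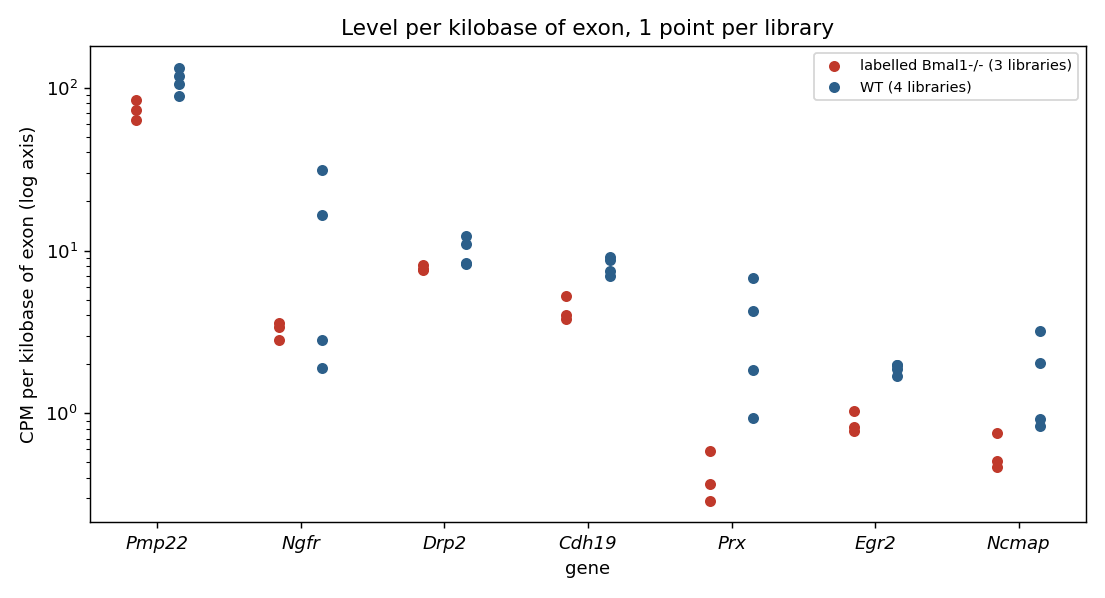
CPM per kilobase of exon (log axis) of the 7 members tested, with 1 point per library and the groups side by side. *Pmp22* lies above the other members in each library, and *Prx*, *Ncmap* and *Ngfr* show the widest spread among the WT libraries.

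Other genes of peripheral myelin also differed in how evenly they were counted. *Cldn19*, a claudin of the Schwann cell's paranodal loops, had 0.31, 0.65 and 0.18 CPM against 4.41, 7.25, 1.55 and 0.73 CPM, and did not pass with genotype alone (log2 fold change -3.18, adjusted p = 0.130, edgeR). It passed with sex as a covariate (log2 fold change -3.35, adjusted p = 0.0363, edgeR). *Dhh*, the hedgehog ligand of Schwann cells, had 1.83, 2.28 and 1.42 CPM against 7.19, 7.58, 3.92 and 1.66 CPM, so that WT replicate 4 lay within the range of the other group (log2 fold change -1.46, adjusted p = 0.186, edgeR).

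*Adgrg6*, the adhesion receptor that starts myelination in Schwann cells and is also found in other cells, followed the even pattern of *Egr2* and *Cdh19*. It had 21.6, 20.7 and 15.3 CPM in replicates 1 to 3 labelled *Bmal1*-/- and 28.8, 30.9, 30.4 and 28.9 CPM in WT replicates 1 to 4, with a log2 fold change of -0.63 (adjusted p = 0.0579, edgeR). Of the 12 other peripheral myelin genes listed none was called by edgeR with genotype alone and 1, *Cldn19*, with sex as a covariate, 4 had an unadjusted p under 0.05, limma-voom called 0 and DESeq2 called 4. *Mal* and *Pllp*, which central myelin shares, had log2 fold changes of 0.14 (95% interval -0.09 to 0.37) and 0.01 (-0.21 to 0.23) and were not called. The median of the 12 log2 fold changes was -0.19.

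The regulators of the Schwann cell lineage, most of which the cord's own glia also express, had 0 of 11 genes called by edgeR, 2 with an unadjusted p under 0.05, 0 called by limma-voom and 1 by DESeq2. Their median log2 fold change was -0.09. *Sox10*, shared by Schwann cells and oligodendrocytes, was at 161 ± 12.6 (SD, n = 3) and 158 ± 13.7 CPM (SD, n = 4). It had a log2 fold change of 0.02 with a 95% interval from -0.19 to 0.23. *Nab2*, a corepressor that binds EGR2, had 19.3, 19.0 and 18.1 CPM against 23.6, 22.5, 29.8 and 26.1 CPM, so its groups were apart, but it did not pass (log2 fold change -0.44, adjusted p = 0.0995, edgeR). It passed without WT replicate 3 (adjusted p = 0.0457, edgeR). *Erbb3*, a neuregulin receptor of Schwann cells, had a log2 fold change of -0.09 with a 95% interval from -0.39 to 0.21. *Foxd3*, a neural crest factor, and *Nrg1*, the neuregulin gene, had -0.56 and 0.36 and were not called.

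Among 12 genes of immature and repair Schwann cells, 1 was called, and it was higher. *Id2*, which encodes an inhibitor of differentiation found in many cell types, had 152, 165 and 165 CPM in replicates 1 to 3 labelled *Bmal1*-/- and 98.2, 87.7, 99.3 and 103 CPM in WT replicates 1 to 4. The groups were far apart for the spread within them, with a log2 fold change of 0.73 and a standard error of 0.07 (adjusted p = 0.00508, edgeR). *Gap43*, a growth gene of axons and denervated Schwann cells, was above WT in each library but did not pass with TMM factors (log2 fold change 0.47, adjusted p = 0.0545, edgeR). It passed with RLE factors (adjusted p = 0.0488, edgeR), without WT replicate 3 (adjusted p = 0.0367, edgeR) and with DESeq2 (adjusted p = 1.78e-05), which makes 2 of the 12 called in each of these. *Jun*, *Sox2*, *Shh* and *Artn* had log2 fold changes of 0.01, 0.05, 0.08 and 0.45 and were not called. The median of the 12 was 0.06, beside -1.09 for the members.

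The laminin receptor partners of periaxin and DRP2 had 0 of 11 genes called by edgeR, limma-voom or DESeq2. *Itga6* had an unadjusted p under 0.05 (log2 fold change -0.29, adjusted p = 0.198, edgeR), 1 gene of the 11. *Lamc1* and *Itgb4*, a laminin chain and an integrin, had 0.29 and -0.24, not called. *Dag1*, which encodes dystroglycan, and *Utrn* had log2 fold changes of 0.07 and 0.00052. Of the ligands and co-receptors of p75NTR, 9 of 10 could be tested and none was called by edgeR, with 1 at an unadjusted p under 0.05, 0 called by limma-voom and 1 by DESeq2.

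Markers of other tissue that a dissected segment can carry also differed between the libraries, to different degrees. The 10 meningeal and perineurial fibroblast markers summed to 1624, 1937, 1305 and 1179 CPM in WT replicates 1 to 4 and to 398, 2273 and 319 CPM in replicates 1 to 3 labelled *Bmal1*-/-. In that list 1 gene, *Fmod*, was called lower (log2 fold change -1.88, adjusted p = 0.00456, edgeR), and the 10 had negative log2 fold changes with a median of -0.99. *Lum* and *Ogn*, small matrix proteoglycan genes, had -1.47 and -1.49, not called. *Bmal1*-/- replicate 2 had the highest sum of the 7 libraries, but its markers did not go 1 way. There the collagen genes *Col1a1*, *Col1a2* and *Col3a1*, at 640.5, 627.5 and 759 CPM, were above every WT library. *Lum* and *Fmod*, at 16.1 and 13.9 CPM, were below every WT library, and *Dcn*, *Ogn*, *Slc6a13*, *Foxc1* and *Cldn1* lay within the WT range. *Bmal1*-/- replicate 2 was also the highest of its group for *Prx*, *Pmp22*, *Egr2*, *Cdh19* and *Drp2*. It was not for *Ncmap*, highest in replicate 3, or for *Ngfr*, highest in replicate 1, and *Pmp2* had 3 counts in both replicates 1 and 2. The 8 skeletal muscle markers summed to 50.2 to 67.0 CPM in WT and to 5.95 to 7.49 CPM in the libraries labelled *Bmal1*-/-, and 6 of the 8 were called lower, namely *Acta1*, *Ckm*, *Mylpf*, *Tnnt3*, *Atp2a1* and *Tnnc2*, with log2 fold changes from -3.62 to -2.01. Of these, *Ckm* and *Mylpf* lost the call on leaving out any 1 library labelled *Bmal1*-/- or WT replicate 1, *Acta1* without *Bmal1*-/- replicate 1 and *Tnnt3* without *Bmal1*-/- replicate 3. No muscle marker was at 0 in all libraries labelled *Bmal1*-/-. The summed level was alike in the 4 WT libraries, but single markers were not, and the highest WT library was 1.52 times the lowest for *Tnnc2* and 6.85 times for *Myh4*. The part of root, meningeal or muscle tissue in the differences of the members was not tested.

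**Figure D4:**
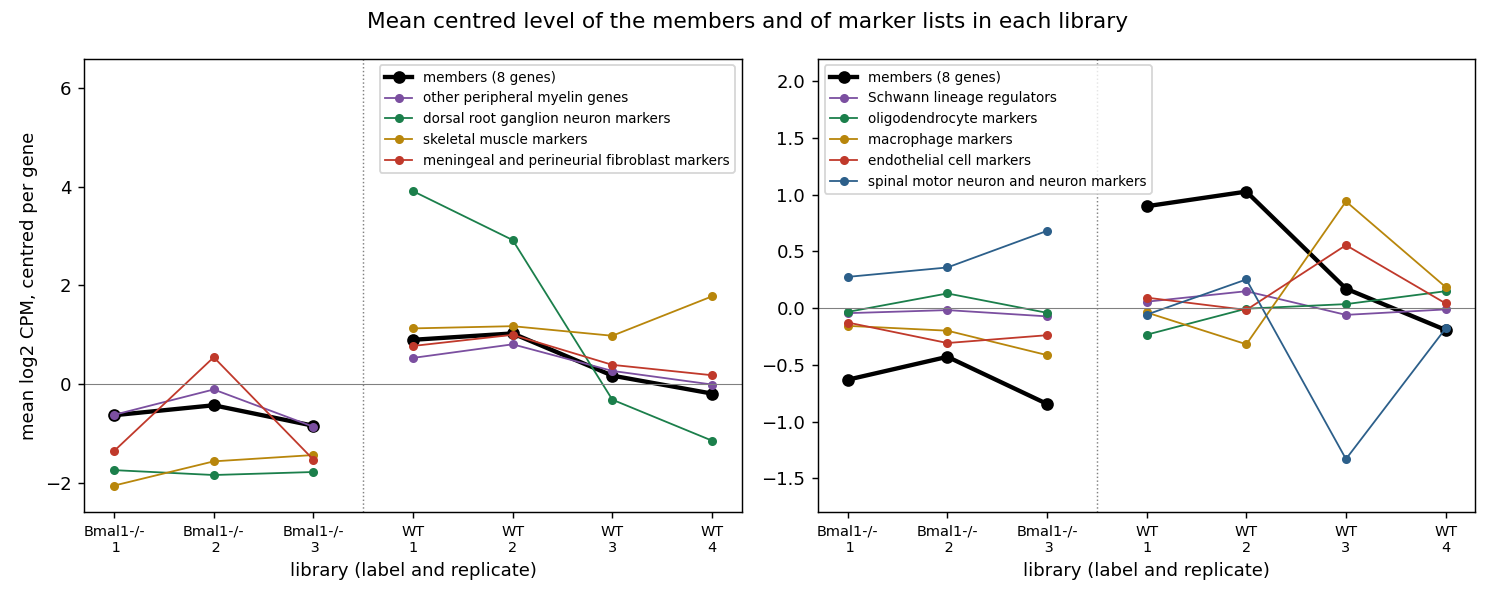
Mean log2 CPM of the genes of a list, each centred on its mean over the 7 libraries (vertical axis), for the 8 members (black) and for marker lists (colours). Lines join the libraries of a group only to guide the eye. On the left, ganglion markers reach 3.91 and 2.92 in WT replicates 1 and 2, and on the right oligodendrocyte markers and lineage regulators stay within 0.25 of 0.

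Markers of cells within the cord were also counted, beside 20.9% of all genes tested with an unadjusted p under 0.05 (edgeR, genotype alone). None of 12 oligodendrocyte markers was called by edgeR, 1 had an unadjusted p under 0.05, limma-voom called 0 and DESeq2 called 1. Their sum was 24730 to 30340 CPM in the libraries labelled *Bmal1*-/- and 24840 to 36110 CPM in WT. *Mbp*, which both kinds of myelin share, had a log2 fold change of -0.28 and was not called. Of 8 macrophage markers, whose cells can express *Egr2*, none was called by edgeR and 2 had an unadjusted p under 0.05. For them limma-voom called 0 and DESeq2 called 1. Of these markers 7 had negative log2 fold changes and 1 a positive one, with a median of -0.53. Their sums were 2741, 2921 and 2167 CPM in replicates 1 to 3 labelled *Bmal1*-/-. In WT replicates 1 to 4 the macrophage sums were 2367, 2130, 4380 and 2956 CPM, so WT replicate 3 was well above the other WT libraries. Of 8 endothelial markers 1, *Cdh5*, was called lower (log2 fold change -0.85, adjusted p = 0.0466, edgeR), 3 had an unadjusted p under 0.05, limma-voom called 0 and DESeq2 called 3. The 8 had negative log2 fold changes, with a median of -0.37. The *Cdh5* call was lost with limma-voom (adjusted p = 0.0504), with sex as a covariate (adjusted p = 0.0912, edgeR), and on leaving out any 1 library other than WT replicate 3 (adjusted p = 0.0532 to 0.216, edgeR). None was called by edgeR among the 6 pericyte, 7 astrocyte and 7 spinal neuron markers and the 3 of 5 melanocyte markers tested. In that order, 3, 3, 0 and 1 had an unadjusted p under 0.05. For these lists limma-voom called 0 and DESeq2 called 2, 2, 0 and 0. The 7 spinal neuron markers had positive log2 fold changes, with a median of 0.70. Their sums were 1723, 1847 and 2342 CPM in replicates 1 to 3 labelled *Bmal1*-/-. In WT replicates 1 to 4 the neuron sums were 1389, 1681, 603 and 1302 CPM, so WT replicate 3 was far below the other WT libraries. In bulk RNA, fewer cells of a type and less RNA per cell cannot be told apart.

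The genes whose levels followed the mean profile of the members most closely were sought among 4665 genes of comparable range. The members' profile, the mean of their centred log2 CPM, was 0.90, 1.03, 0.17 and -0.19 in WT replicates 1 to 4 and -0.63, -0.43 and -0.84 in replicates 1 to 3 labelled *Bmal1*-/-. *Serinc2* was closest, with a mean absolute difference of 0.11 on the log2 scale over the 7 libraries. *Ptger1*, *Akr1c14*, *Amigo3*, *Car3*, *Gprc5c*, *Gpr20*, *Fmo1* and *Srpx* were among those that followed, with 0.16 to 0.18. None of the 10 closest genes belongs to a list used here, and none was called (adjusted p from 0.0646 to 0.196, edgeR). The profile also averages 2 kinds of members, the even and the uneven ones.

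Within each sex the direction was the same for *Prx*, *Pmp22*, *Egr2*, *Cdh19*, *Ncmap* and *Drp2*. Between females the log2 difference was -1.04 for *Egr2* and -0.81 for *Cdh19*, and between males it was -1.20 and -1.06, with only 1 male labelled *Bmal1*-/-. *Ngfr* differed by -2.70 between females and by 0.28 between males. A test of the difference between the sexes, added after seeing the data, called none of the 15743 genes in edgeR's quasi-likelihood test. At an unadjusted p under 0.05 were 3 of the 7 members, *Ngfr*, *Ncmap* and *Drp2*, and 12.3% of all genes. That test has 1 male labelled *Bmal1*-/-, assumed to vary like the other groups, and its female WT libraries are the 2 with high ganglion markers, so sex and this content cannot be told apart in it.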

How the data were processed

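RNASeq of 7 libraries, 1 per mouse, was used. Per the labels and the study's methods, the authors made stranded poly-A libraries, checked reads with FastQC 0.10.1, used Tophat2 for alignment (GRCm38) and HTSeq 0.10.0 for gene counts. What the authors deposited is a table of whole-number counts, not normalized, with 38529644 to 44096737 per library. The annotation release and strand setting are not given in the sources used here, so overlapping genes are uncertain. Gene names, positions and exon lengths came from GENCODE M21, with 21939 of 21965 rows matched.

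Genes were filtered with filterByExpr, normalized with TMM and tested on genotype with edgeR 4.0.16 (limma 3.58.1, R 4.3.3) with Benjamini-Hochberg adjustment. Standard errors and 95% intervals come from the quasi-likelihood statistic. Intervals and floors (3 counts) do not cover differences in dissection. Where the study used DESeq2, it was run as an alternative (1.42.0). The other alternatives were RLE factors, filters at 1 count and at a mean count of 10, limma-voom, sex as a covariate, a replicate block and each library left out. The absence of both WT replicates 1 and 2 and the test of sexes were added after seeing the data. The members and lists were chosen with earlier results of these data known. Replicates came from separate mice. Named are the 8 members, called genes of the 15 lists, up to 3 with the largest change in each, and the 10 genes closest to the members' mean log2 CPM (prior count 2) whose range was at least 0.5 times theirs. *Sox10*, *Erbb3*, *Adgrg6*, *Mal*, *Pllp*, *Jun*, *Sox2*, *Shh*, *Dag1*, *Utrn*, *Mrgprx1*, *Calca*, *Prph* and *Arntl* were named beyond this rule, after their values were seen. So were *Col1a1*, *Col1a2*, *Col3a1*, *Dcn*, *Slc6a13*, *Foxc1* and *Cldn1*. Some genes that this rule names are not reported here. The methods were tested on simulated data. Plots were drawn with matplotlib 3.10.9.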

Additional observations from a re-analysis of the deposited data

How the results depend on the processing

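Over all genes, 144 were called lower and 103 higher. DESeq2 gave 914 and 599, and called 5 members and 33 listed genes, in place of 2 and 9. Limma-voom gave 115 and 91, with 2 members and 8 listed genes. Sex as a covariate gave 105 and 69, with 3 members and 12 listed genes. The replicate block gave 0 and 0, with 0 members and 0 listed genes. In that fit 1590 genes and 6 members had an unadjusted p under 0.05. Deviations of same-numbered libraries from their group means had correlations of -0.17, 0.18 and -0.29 over 15743 genes. With so few libraries per group, these values cannot show whether the numbers pair the mice. The block also spends a term on each replicate number, which leaves few degrees of freedom for its tests. Leaving out 1 library at a time gave 27 to 439 lower and 30 to 291 higher genes, 0 to 3 members, 5 to 19 listed genes and a median log2 fold change of the members from -1.22 to -1.01. The smallest counts of called genes came without *Bmal1*-/- replicate 1 and the largest without WT replicate 3. No member was called without *Bmal1*-/- replicate 1 or 3 or WT replicate 1. Without both WT replicates 1 and 2 there were 15 lower and 26 higher genes, 0 members and 1 listed gene, and the median of the members was -0.61. *Ngfr* (0.47) and *Foxd3* (0.52) reversed in that setting. *Pmel* reversed to -0.074 without *Bmal1*-/- replicate 1, to -0.06 without WT replicate 2 and to -0.06 without WT replicate 3. *Prx* and *Pmp22* were called with DESeq2 and with sex as a covariate, *Ncmap* with DESeq2, and *Cdh19* was lost with sex as a covariate (adjusted p = 0.0603, edgeR). Apart from *Ngfr*, the members tested were lower in each of the 15 alternatives. The causes were not tested. At these depths *Pmp2* did not pass the filter on low counts, and its interval was wide without it.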
